A study of Mus musculus with 6 samples.

Results

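Fatty acid synthesis, elongation and desaturation was followed in mouse colonic organoids through 10 genes: *Srebf1*, *Acly*, *Acaca*, *Fasn*, *Elovl6*, *Scd1*, *Scd2*, *Fads2*, *Elovl5* and *Fads1*. The genes were chosen by symbol, and all 10 were found among the 25067 rows of the deposited values. Organoids are epithelial structures grown in a gel from intestinal stem cells. Those used here came from the colon of C57BL/6 mice of 8 weeks of age that carried loxP-flanked alleles of both atypical protein kinase C (aPKC) genes, *Prkci* and *Prkcz*, and the Villin-CreERT2 transgene, in which the epithelial Villin promoter drives a Cre recombinase that tamoxifen activates. At passage they received either 4-hydroxytamoxifen (4-OHT) or ethanol as the vehicle for 3 days, and RNA was sequenced in 3 libraries per group. All 6 libraries share the floxed alleles and the transgene, and none combined 4-OHT with unfloxed genes or with absence of Cre, so the effects of aPKC loss, of active Cre and of 4-OHT itself cannot be told apart. Nothing in the labels says that the libraries of a group came from separate animals or cultures, so the p-values measure only the spread between these libraries, which may be technical.

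Cells build fatty acids from citrate that leaves the mitochondria. ATP citrate lyase (*Acly*) splits it to acetyl-CoA, acetyl-CoA carboxylase 1 (*Acaca*) turns acetyl-CoA into malonyl-CoA, and fatty acid synthase (*Fasn*) joins these units into palmitate. *Elovl6* lengthens palmitate to stearate, the stearoyl-CoA desaturases *Scd1* and *Scd2* place the first double bond in such saturated chains, and *Fads2*, *Elovl5* and *Fads1* work in turn on dietary linoleic and linolenic acid to make arachidonic and eicosapentaenoic acid. *Srebf1* encodes SREBP-1, a transcription factor held in the endoplasmic reticulum until it is cleaved, which binds the promoters of most of these enzymes. In the gut epithelium these lipids supply the membranes of cells that divide and turn over quickly.

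After 4-OHT, 9 of the 10 genes were lower and 0 were higher (limma-trend on log2 of the normalized count plus 1, Benjamini-Hochberg adjusted p under 0.05). At an unadjusted p under 0.05 the counts were again 9 and 0, and edgeR and DESeq2 likewise called 0 genes higher. Among all 13210 rows tested, 21.0% passed as lower and 22.7% as higher. The median log2 fold change (4-OHT minus vehicle) was -0.33 for the 10 genes and -0.01 for all rows tested. Log2 fold changes were -0.35 or closer to 0 for *Srebf1*, *Acly*, *Acaca*, *Fasn*, *Elovl6* and *Scd2*. *Elovl5* stood at -0.42 and *Scd1* at -0.49, and the front-end desaturases *Fads2* and *Fads1* at -0.59 and -0.77. The 3 values after 4-OHT lay below all 3 vehicle values for 9 of the 10 genes, *Acly* being the exception, against 25.3% of all rows tested, and 0 genes had the opposite order, which 26.8% of all rows showed. Together the 10 genes took between 4924 and 4954 reads per 1000000 reads (RPM) in the vehicle libraries and between 3647 and 3899 in the 4-OHT libraries. This sum weighs *Scd2* most, with mean normalized counts of 47458 in vehicle and 38408 in 4-OHT libraries. *Fasn* came next, with 13228 and 11208.

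**Figure D1:**
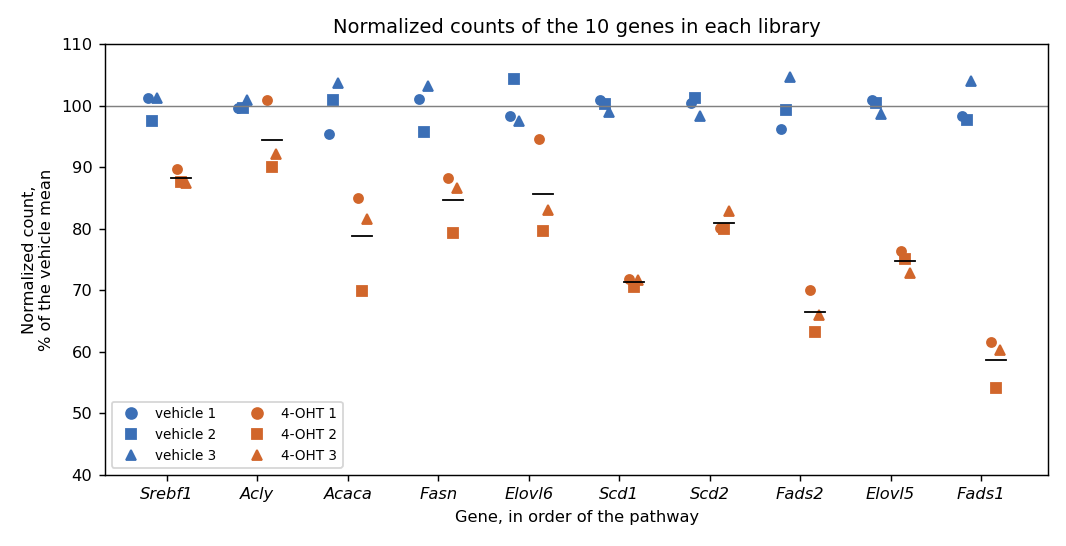
Normalized counts of the 10 genes in each of the 6 libraries as percent of the vehicle mean (vertical axis, starting at 40%), with the genes in the order of the pathway (horizontal axis). Blue symbols are the 3 vehicle and orange symbols the 3 4-OHT libraries, the marker shape gives the replicate number, and black lines mark the 4-OHT means; the groups overlap for *Acly* and are apart for the other 9 genes.

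The floxed genes were read first as a check of the labels. *Prkcz* had normalized counts of 879.8, 904 and 954 in vehicle replicates 1 to 3 and 287, 265 and 290.3 in 4-OHT replicates 1 to 3, with a log2 fold change of -1.70 (SE 0.076). *Prkci* had 3603, 3526 and 3429.7 against 2869, 3106 and 3089 and was 14.2% lower, at -0.22 on the log2 scale (SE 0.048, limma adjusted p = 0.00081). Which exons the floxed alleles remove is not given in the sources used here, and reads from the rest of a transcript can remain. The libraries held between 15804709 and 26957612 reads. All 10 genes of a proliferation list were lower, against 21.0% of all rows tested. The list took 1960 to 2078 RPM in vehicle and 1043 to 1189 in 4-OHT libraries. Of the markers of intestinal and colonic epithelium, *Epcam* had 26033 to 28265 normalized counts in vehicle and 30494 to 34653 in 4-OHT libraries, *Vil1* had 14622 to 14880 and 17294 to 17491, and *Cdx2* had 6577 to 6689 and 5334 to 5804, so the defining epithelial genes were present in every library. Of 8 Paneth and ileal markers 6 were higher, and 22.7% of all rows tested were. *Defa21*, *Defa24*, *Mptx2*, *Fabp6* and *Reg3g* had at most 4.26 normalized counts in vehicle libraries and 4.13 in 4-OHT replicate 1. They averaged 10 or more, as testing required, only through 4-OHT replicates 2 and 3. The count of higher markers therefore cannot be set against that share. The 8 markers took 35.8 to 49.97 RPM in vehicle, and after 4-OHT 54.8 in replicate 1, 107 in replicate 2 and 100.5 in replicate 3. Markers of adipocytes, which also make fatty acids, came to 12.7 to 16.9 RPM in vehicle and 11.8 to 14.2 in 4-OHT libraries. *Cidec* and *Lipe* made up most of this sum, and *Adipoq* was 0 in every library. The scarce *Fabp4*, *Plin1* and *Cfd*, not tested, were highest in 4-OHT replicate 3, with 3.42, 3.42 and 11.4 normalized counts. In vehicle libraries they had at most 1.87. Neither of the 2 adipocyte markers tested passed. Fibroblast markers came to 2.03 to 3.58 RPM in vehicle and to 1.97, 2.20 and 10.6 in 4-OHT replicates 1, 2 and 3, so that replicate 3 stood apart. *Col3a1*, a fibroblast collagen, was 0 in all vehicle libraries and in 4-OHT replicate 1. It had 6.22 and 113.8 normalized counts in 4-OHT replicates 2 and 3, and averaged 10 or more, as testing required, only through replicate 3. Its call as higher (limma adjusted p = 0.035) therefore leans on that library. *Pdgfrb*, the only other fibroblast marker tested, was called lower, with 31.5 to 47.6 normalized counts in vehicle and 17.1 to 31.0 in 4-OHT libraries. Its log2 fold change was -0.71 (SE 0.29). Without 4-OHT replicate 3, 9 of the 10 fatty acid genes were lower, with a median log2 fold change of -0.35. Leukocyte markers came to 9.17 to 11.4 and 6.85 to 8.41 RPM, and endothelial markers to 2.09 to 2.97 and 1.77 to 2.76. *Cd68*, the only leukocyte marker tested, made up most of the leukocyte sum and was lower (log2 fold change -0.42, limma adjusted p = 0.015). *Lyz2*, not tested, was 0 in vehicle libraries and had 1.03, 6.22 and 28.5 normalized counts in 4-OHT replicates 1, 2 and 3. The part of the proliferation, epithelial, Paneth and ileal and other marker genes in the results was not tested, and in RNA from whole organoids fewer cells of a type and less RNA per cell cannot be told apart.

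The stretches before the start sites of 4 of the genes are printed to show the sequence beside changes of different size. They span the 250 bases before the RefSeq start on mouse build GRCm38.p6, whereas the submitters' processing notes name GRCm39, and *Fads2*, *Elovl5* and *Fasn* fell while *Acly* did not pass the test. They lie at chr19:10101504-10101753 on the minus strand for *Fads2*, chr9:77917115-77917364 on the plus strand for *Elovl5*, chr11:120824548-120824797 on the minus strand for *Fasn* and chr11:100528001-100528250 on the minus strand for *Acly*. Capitals mark matches on either strand to TCANNCCAC, a loose spelling of the sterol regulatory element that SREBP binds, to the E-box CACGTG, to the CCAAT box of NF-Y and to the GC box GGGCGG of Sp1, which were chosen after the windows had been looked at.
Fads2: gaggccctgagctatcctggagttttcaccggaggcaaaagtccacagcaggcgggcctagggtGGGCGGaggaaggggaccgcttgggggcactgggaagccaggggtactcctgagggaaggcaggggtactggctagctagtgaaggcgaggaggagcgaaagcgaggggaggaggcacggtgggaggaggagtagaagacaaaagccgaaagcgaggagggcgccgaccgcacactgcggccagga
Elovl5: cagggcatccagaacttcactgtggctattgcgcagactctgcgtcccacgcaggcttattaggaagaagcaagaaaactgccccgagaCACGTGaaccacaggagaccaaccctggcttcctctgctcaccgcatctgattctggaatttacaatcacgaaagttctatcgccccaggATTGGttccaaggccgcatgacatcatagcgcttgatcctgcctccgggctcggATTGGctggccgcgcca
Fasn: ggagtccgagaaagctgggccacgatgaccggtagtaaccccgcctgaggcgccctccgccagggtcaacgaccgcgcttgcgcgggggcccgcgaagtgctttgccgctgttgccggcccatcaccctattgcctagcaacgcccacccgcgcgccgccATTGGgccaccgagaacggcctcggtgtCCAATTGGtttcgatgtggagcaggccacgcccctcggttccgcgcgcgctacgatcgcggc
Acly: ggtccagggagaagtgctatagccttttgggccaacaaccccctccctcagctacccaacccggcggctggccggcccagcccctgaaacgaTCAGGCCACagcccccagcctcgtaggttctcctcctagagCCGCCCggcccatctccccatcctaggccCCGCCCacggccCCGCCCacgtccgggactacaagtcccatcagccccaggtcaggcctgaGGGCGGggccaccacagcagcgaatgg
The *Elovl5* window holds the E-box 161 bases before the start and CCAAT on the minus strand 71 and 17 bases before it. In *Fasn*, CCAAT lies 90, 62 and 59 bases before the start, those at 62 and 59 overlapping on opposite strands. The match to TCANNCCAC is in *Acly*, 158 bases before the start, with 4 GC boxes after it, and *Fads2* has 1 GC box. The table of start sites held 9 windows of 7 of the 10 genes, not of *Scd1*, *Scd2* or *Fads1*. Of these 9 windows, TCANNCCAC was found in 1, CACGTG in 1, CCAAT in 4 and GGGCGG in 4, and the shares of all 32851 windows of this length were 3.52%, 6.02%, 33.8% and 32.7%. *Srebf1* had more than 1 window, and counted by gene the matches were in 1, 1, 3 and 3 of the 7 genes. A match is a description of letters and not a bound site.

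Among the genes that lead to palmitate, *Srebf1*, *Acaca* and *Fasn* fell and *Acly* did not pass the test. *Srebf1* had normalized counts of 4399.9, 4236 and 4398 in vehicle replicates 1 to 3 and 3895, 3805 and 3796 in 4-OHT replicates 1 to 3. The groups did not overlap, and the level was 11.8% lower (95% interval 6.07% to 17.2%), which is -0.18 on the log2 scale (SE 0.043, limma adjusted p = 0.0021). These reads count all *Srebf1* transcripts of the gene together, so the SREBP-1a and SREBP-1c forms cannot be read separately, and the cleavage that activates the protein was not measured.

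*Acly*, the enzyme that provides cytosolic acetyl-CoA, had 8581, 8578 and 8701 normalized counts in vehicle and 8694, 7755 and 7947 in 4-OHT libraries. The value of 4-OHT replicate 1 lay within the vehicle range and those of replicates 2 and 3 lay below it. Its log2 fold change was -0.09 (SE 0.046, 95% interval -0.18 to 0.01, limma adjusted p = 0.14). The interval of this comparison ended at a fall of 11.9%. Quantile normalization gave -0.18, so that bound holds for the main comparison only. *Acly* passed the test when 4-OHT replicate 1 was left out, with a log2 fold change of -0.13 (limma adjusted p = 0.021).

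*Acaca*, the enzyme of the committed step to malonyl-CoA, had 2304, 2437 and 2505 normalized counts in vehicle and 2051, 1687 and 1972 in 4-OHT libraries. All 3 treated values were below the vehicle values, and 4-OHT replicate 2 was the lowest. The level was 21.4% lower (95% interval 13.9% to 28.3%), which is -0.35 on the log2 scale (SE 0.063, limma adjusted p = 0.00015). *Fasn*, which assembles palmitate, had 13377, 12664 and 13645 normalized counts in vehicle and 11677, 10498 and 11449 in 4-OHT libraries. Its groups were apart as well, again with 4-OHT replicate 2 lowest. The level was 15.3% lower (95% interval 9.31% to 20.9%), or -0.24 on the log2 scale (SE 0.047, limma adjusted p = 0.00035).

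*Elovl6*, the elongase of saturated chains, was lower after 4-OHT. *Elovl6* had 2234, 2371 and 2217 normalized counts in vehicle and 2149, 1809 and 1886 in 4-OHT libraries. The gap between the groups was small, and 4-OHT replicate 1 came close to the lowest vehicle value. *Elovl6* was 14.5% lower (95% interval 6.82% to 21.6%), or -0.23 on the log2 scale (SE 0.059, limma adjusted p = 0.0043). With 4-OHT replicate 1 as the only treated library, its spread assumed to be that of the vehicle libraries, the log2 fold change was -0.08 (limma adjusted p = 0.41).

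Both stearoyl-CoA desaturases fell, with little spread between libraries. *Scd1* had 5645, 5607 and 5531 normalized counts in vehicle and 4014, 3946 and 4007 in 4-OHT libraries. The treated libraries were close to each other and all lay well under the vehicle libraries. The log2 fold change was -0.49 (SE 0.042, limma adjusted p = 1.7e-08), a level 28.7% lower (95% interval 24.2% to 32.9%). *Scd2*, the isoform with the highest count of the 10 genes, had 47636, 48076 and 46663 normalized counts in vehicle and 37977, 37955 and 39292 in 4-OHT libraries. Again no treated value reached the vehicle range. *Scd2* was 19.1% lower (95% interval 13.9% to 23.9%), or -0.31 on the log2 scale (SE 0.042, limma adjusted p = 7.7e-06). Quantile normalization moved this value to -0.50.

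The *Scd1* and *Scd2* transcripts are similar, and 3.03% of the 50-base windows of the *Scd1* transcript also occur in *Scd2*, against none for the pairs *Fads1* and *Fads2*, *Elovl5* and *Elovl6*, and *Acaca* and *Acacb*. In the other direction, 2.68% of the *Scd2* windows occur in *Scd1*. Because *Scd2* had the far higher count, even coverage would place 1018 to 1289 normalized counts of *Scd2* on those windows, which is 22.6% to 26.3% of the *Scd1* count of the same library. How the authors' counting assigned such reads is not known, so the *Scd1* count and its ratio to *Scd2* are uncertain. *Scd2* gave 89.4% to 89.6% of the reads of the pair in vehicle libraries and 90.4% to 90.8% in 4-OHT libraries.

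The 3 genes that make polyunsaturated fatty acids included the largest declines. *Fads2*, the delta-6 desaturase that takes the first step, had 5569, 5752 and 6059 normalized counts in vehicle and 4057, 3664 and 3826 in 4-OHT libraries. Every treated value was well under the lowest vehicle value. The log2 fold change was -0.59 (SE 0.049, limma adjusted p = 9.9e-09), a level 33.6% lower (95% interval 28.7% to 38.1%). *Elovl5*, the elongase that acts on the product of *Fads2*, had 2387, 2375 and 2333 normalized counts in vehicle and 1807, 1775 and 1721 in 4-OHT libraries. The groups were far apart relative to their spread. *Elovl5* was 25.3% lower (95% interval 19.8% to 30.3%), or -0.42 on the log2 scale (SE 0.048, limma adjusted p = 7.3e-07).

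*Fads1*, the delta-5 desaturase that makes arachidonic acid, showed the largest change of the 10 genes. It had 2087, 2072 and 2206 normalized counts in vehicle and 1306, 1146 and 1279 in 4-OHT libraries. No treated value came near the vehicle range, and 4-OHT replicate 2 was the lowest. The level was 41.4% lower (95% interval 36.3% to 46.1%), which is -0.77 on the log2 scale (SE 0.058, limma adjusted p = 2.6e-09). *Fads1* and *Fads2* are neighbours on chromosome 19 in the RefSeq annotation, and *Scd1* and *Scd2* lie on the same chromosome with *Scd4* between them. *Srebf1*, *Acly*, *Acaca* and *Fasn* are on chromosome 11.

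**Figure D2:**
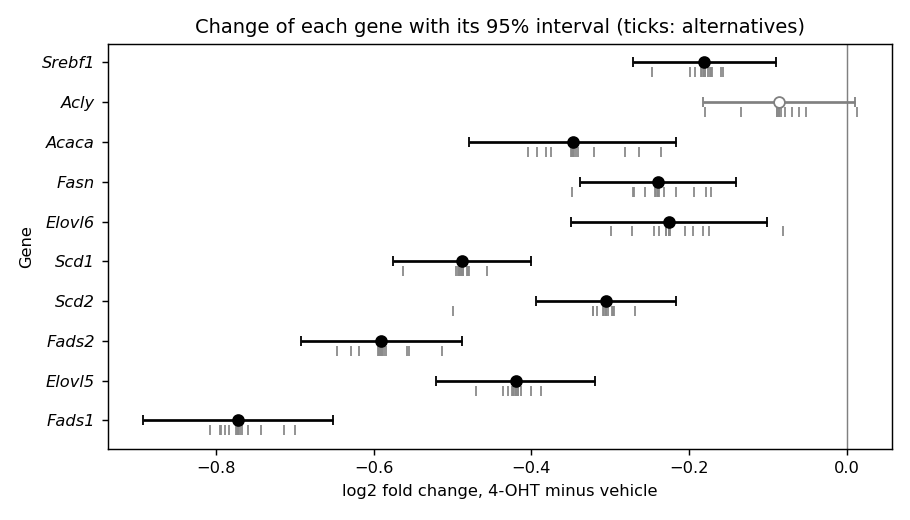
Log2 fold change of each of the 10 genes, 4-OHT minus vehicle (horizontal axis), with its 95% interval from limma, in the order of the pathway (vertical axis). Filled circles passed an adjusted p of 0.05, the open circle of *Acly* did not, and grey ticks give the value under each of 17 alternatives; *Fads1* lies farthest from 0 at -0.77.

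Ordered by size, the log2 fold changes ran from *Fads1* through *Fads2*, *Scd1*, *Elovl5*, *Acaca*, *Scd2*, *Fasn*, *Elovl6* and *Srebf1* to *Acly*. The 95% intervals of neighbours in this order overlapped in every case. The 3 treated libraries had medians over the 10 genes of -0.28, -0.37 and -0.28 (log2, relative to the vehicle mean) in 4-OHT replicates 1, 2 and 3. In replicate 1, 9 of the 10 genes were below every vehicle value, and in replicates 2 and 3 all 10 were. The lowest value of *Elovl5* and of *Srebf1* was in 4-OHT replicate 3, and that of each of the other genes was in replicate 2.

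Within a library, the ratio of 2 genes removes the scaling of the library. Of 6 pairs compared, 4 had ratios whose 3 treated values lay below the 3 vehicle values. Of all single rows tested, 25.3% had their 3 treated values below and 26.8% above. The share for ratios of other gene pairs was not computed, so 4 of 6 is a description only. The smallest p that 3 against 3 libraries allow in the two-sided exact permutation test is 0.1. The log2 ratio of *Scd1* to *Scd2* was -3.08 ± 0.013 (SD, n = 3) in vehicle and -3.27 ± 0.026 in 4-OHT libraries, a difference of -0.18 (exact permutation p = 0.1, adjusted over the 6 pairs 0.15). In each 4-OHT library the *Scd1* count was lower relative to that of *Scd2* than in any vehicle library, within the limit that shared windows set on this ratio. The log2 ratio of *Fads1* to *Fads2* was -1.45 ± 0.030 in vehicle and -1.63 ± 0.048 in 4-OHT libraries, a difference of -0.18 (exact permutation p = 0.1, adjusted 0.15). For *Elovl5* to *Elovl6* the difference was -0.19 and for *Acaca* to *Acly* -0.26, each with the same exact permutation p of 0.1. The ratio of *Fasn* to *Acaca* differed by 0.11 (exact permutation p = 0.2) and that of *Acaca* to its mitochondrial-membrane paralog *Acacb* by -0.20 (exact permutation p = 0.4), with overlapping values in both pairs. The *Fasn* to *Acaca* difference was 0.07 without vehicle replicate 2 and without 4-OHT replicate 2, and the *Acaca* to *Acacb* difference was -0.06 without vehicle replicate 3 and -0.11 without 4-OHT replicate 2. No pair reached an adjusted p of 0.05, which this number of libraries could not give.

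**Figure D3:**
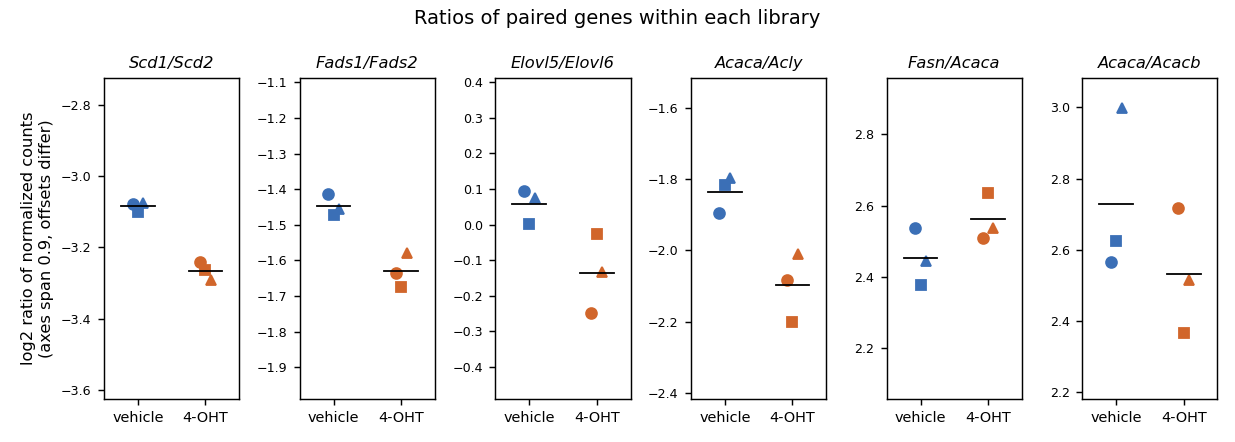
Log2 ratio of normalized counts of 6 gene pairs (vertical axes, each spanning 0.9) in the 3 vehicle (blue) and 3 4-OHT (orange) libraries, with lines at the means and shapes for the replicate number. The groups are apart for *Scd1*/*Scd2*, *Fads1*/*Fads2*, *Elovl5*/*Elovl6* and *Acaca*/*Acly* and overlap for *Fasn*/*Acaca* and *Acaca*/*Acacb*.

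The genes differed widely in level per transcript length. Normalized counts per kilobase were taken from the length of 1 principal transcript per gene (GENCODE, mouse build GRCm38). In vehicle libraries *Scd2* was highest at 8700 ± 133 (SD, n = 3) normalized counts per kilobase, a level higher than in 98.9% of the rows tested that had a length. *Acly* followed at 1948 and *Fads2* at 1839, then *Fasn* at 1316, *Scd1* at 1158, *Srebf1* at 1011, *Elovl5* at 850.0, *Fads1* at 613, *Elovl6* at 382 and *Acaca* at 254. No neighbours in this order overlapped in the vehicle libraries. After 4-OHT *Srebf1*, at 891 normalized counts per kilobase, stood above *Scd1*, at 826, and the values of *Fads1*, at 359.5, overlapped those of *Elovl6*, at 327.

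**Figure D4:**
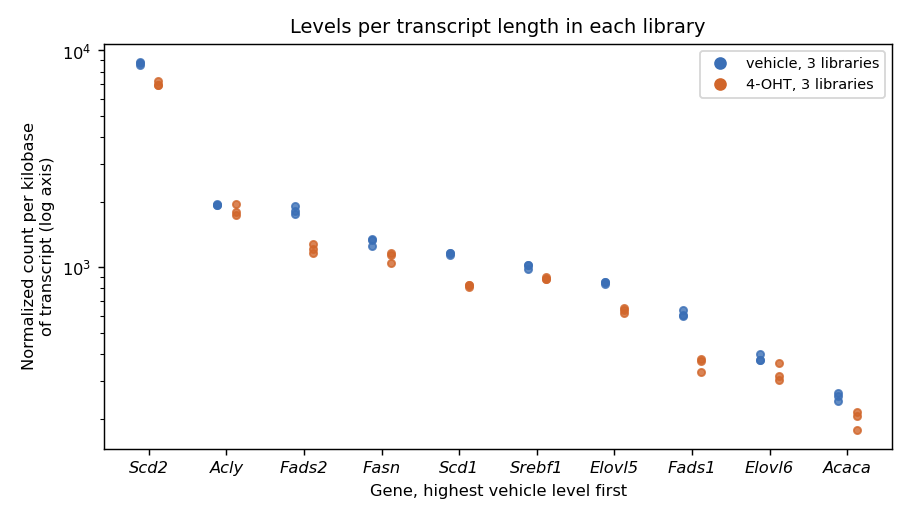
Normalized count per kilobase of transcript (vertical, log axis) of the 10 genes, with the highest vehicle level first (horizontal axis). Each point is 1 library, blue for vehicle and orange for 4-OHT; *Scd2* stands apart at 8700 normalized counts per kilobase in vehicle and 7041 after 4-OHT.

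The other genes of the pathway were counted in 7 lists. The shares to set beside the counts of every list are those of all rows tested, 21.0% lower and 22.7% higher. No list was tested against these shares. The genes named first in each are those past the adjusted threshold with a log2 fold change of at least 0.5 in size, or the largest change of the list, and the remaining genes named were chosen after their values were seen. Of 7 genes that supply acetyl-CoA and NADPH, 2 were lower and 2 higher, with a median of 0.03. *Acss1*, the mitochondrial acetyl-CoA synthetase, had 898, 904 and 933 normalized counts in vehicle and 573, 618 and 633 in 4-OHT libraries, and changed by -0.58 on the log2 scale (SE 0.066, limma adjusted p = 5.5e-07). Its cytosolic counterpart *Acss2*, which makes acetyl-CoA from acetate, had 1421, 1437 and 1209 against 827, 1055 and 889, and changed by -0.56 on the log2 scale (SE 0.081, limma adjusted p = 1.3e-05). Every treated value of both synthetases lay below the vehicle values. The NADPH-forming enzymes *Me1* (log2 fold change 0.32) and *Idh1* (0.21) were higher.

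In the list of malonyl-CoA control, which holds *Acacb*, AMP-activated kinase subunits, malonyl-CoA decarboxylase and partners of acetyl-CoA carboxylase, 1 gene was lower and 3 higher of 9 tested, with a median of 0.09. *Prkab2*, a regulatory subunit of the AMP-activated kinase, had 271, 285 and 199.8 normalized counts in vehicle and 169, 196 and 197 in 4-OHT libraries, and changed by -0.41 on the log2 scale (SE 0.13, limma adjusted p = 0.014). The call was lost without vehicle replicate 1, without vehicle replicate 2 and without 4-OHT replicate 1, where 0 genes of the list were lower. *Mlycd* (0.29), *Mid1ip1* (0.25) and *Prkab1* (0.15) were higher, and *Acacb* was at -0.15 (limma adjusted p = 0.23).

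Of 8 other tested enzymes of the elongation cycle 1 was lower and 2 higher, with a median of 0.08. *Hacd1*, a 3-hydroxyacyl-CoA dehydratase, had 260.3, 258 and 209 normalized counts in vehicle and 350.2, 444 and 373 in 4-OHT libraries, and changed by 0.68 on the log2 scale (SE 0.11, limma adjusted p = 4.5e-05). The elongase *Elovl7* was higher too, at 0.31. *Hacd4*, another dehydratase, had only 25.2, 33.3 and 14.5 normalized counts in vehicle and 5.17, 13.5 and 13.7 in 4-OHT libraries, and its change of -1.14 on the log2 scale (SE 0.42, limma adjusted p = 0.036) was not called without vehicle replicate 1, without vehicle replicate 2 or without 4-OHT replicate 1. The other elongases of polyunsaturated chains, *Elovl2* and *Elovl4*, had at most 2.42 normalized counts in any library and were not tested.

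None of the 8 other desaturases and electron donors tested was lower and 4 were higher, with a median of 0.20, while the 4 desaturases among the 10 genes were all lower. *Degs1*, the sphingolipid desaturase that makes ceramide, had 618, 663 and 772 normalized counts in vehicle and 898, 874 and 849 in 4-OHT libraries, and changed by 0.36 on the log2 scale (SE 0.076, limma adjusted p = 0.0007). A second, lower row of *Degs1*, left out of the counts, was at 0.29 and did not pass (limma adjusted p = 0.22). *Degs2* (0.19) and the electron carriers *Cyb5a* (0.26) and *Cyb5r3* (0.20), which pass electrons to the fatty acyl desaturases, were also higher. The number of genes of this list that were lower was 0 at an unadjusted p under 0.05 in limma, and 0 in edgeR and DESeq2. None of the *Scd* and *Fads* genes of this list passed as higher or lower. *Fads3*, which lies beside *Fads2*, was at 0.11 (limma adjusted p = 0.13). *Scd4*, with at most 18.6 normalized counts, was at -0.21 and *Fads6*, with at most 46.7, at 0.29 (limma adjusted p = 0.78 and 0.37). *Scd3* was too scarce to be tested.

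Among 10 genes of the transcriptional control of lipogenesis 3 were lower and 3 higher, with a median of -0.0019. *Mlxipl*, which encodes the glucose-responsive factor ChREBP, had 323, 279 and 301 normalized counts in vehicle and 182, 164 and 186 in 4-OHT libraries, and changed by -0.76 on the log2 scale (SE 0.11, limma adjusted p = 8.3e-06). *Nr1h3*, which encodes the oxysterol receptor LXR alpha, was scarce, with 15.9, 13.5 and 15.7 normalized counts in vehicle and 30.0, 35.2 and 26.2 in 4-OHT libraries, and was higher by 0.97 on the log2 scale (SE 0.30, limma adjusted p = 0.014). *Insig1* (-0.15) and *Mbtps1* (-0.16), an SREBP retention factor and an SREBP protease, were lower, and *Insig2* (0.20) and *Mlx* (0.17) were higher. *Srebf2*, the SREBP gene more closely tied to cholesterol synthesis, was at -0.06 (limma adjusted p = 0.24). The number of genes of this list called higher fell to 0 without 4-OHT replicate 2 and to 1 without vehicle replicate 1 or without vehicle replicate 3.

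Of 13 tested genes of fatty acid activation and glycerolipid synthesis 3 were lower and 4 higher, with a median of -0.05. *Gpam*, which starts glycerolipid synthesis, had 466, 451 and 517 normalized counts in vehicle and 343, 349 and 369.96 in 4-OHT libraries, and changed by -0.43 on the log2 scale (SE 0.084, limma adjusted p = 0.00032). *Lpin1* (-0.33) and *Acsl4* (-0.26), an acyl-CoA synthetase that prefers arachidonic acid, were lower, and *Dgat1* (0.25), *Dgat2* (0.25), *Acsl3* (0.23) and *Agpat2* (0.22) were higher. None of the 5 tested genes of mitochondrial fatty acid synthesis, a separate route that feeds lipoic acid formation, passed in limma, where 0 had an unadjusted p under 0.05, and edgeR and DESeq2 called 0. The largest change there was that of *Oxsm*, which had 505, 582 and 549.6 normalized counts in vehicle and 483.5, 479.9 and 502 in 4-OHT libraries, and its log2 fold change was -0.16 (limma adjusted p = 0.11).

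**Figure D5:**
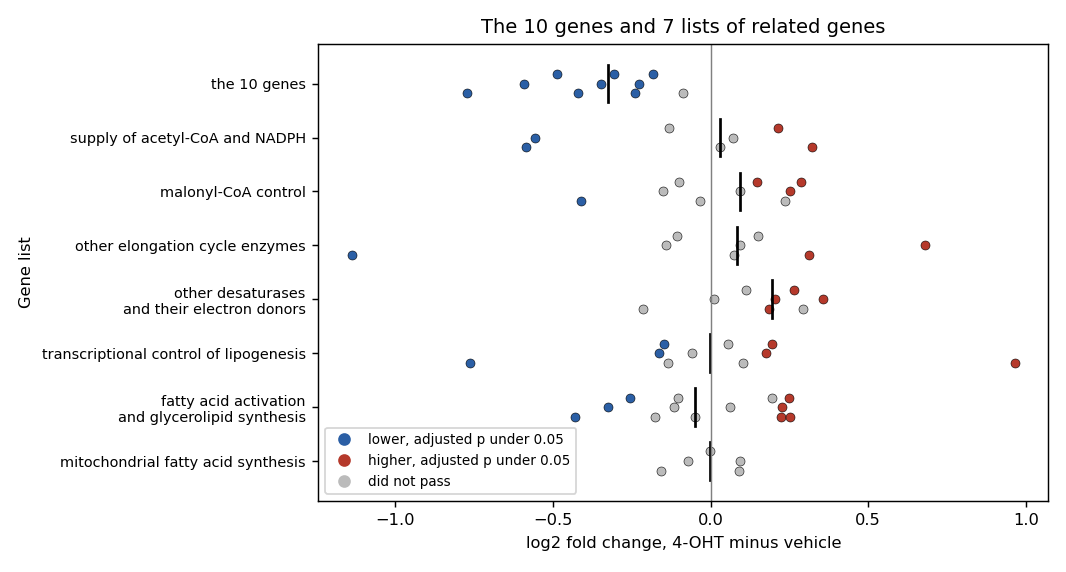
Log2 fold change, 4-OHT minus vehicle (horizontal axis), of the 10 genes and of the tested genes of 7 related lists (vertical axis), 1 point per gene, blue or red where the adjusted p of limma was under 0.05 and grey otherwise. Black bars mark the median of each list, which is -0.33 for the 10 genes and lies between -0.05 and 0.20 for the 7 lists.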

How the data were processed

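RNA was sequenced from 3 vehicle and 3 4-OHT libraries, which were grouped by their labels. The deposited signal is a normalized count, reads per gene divided by 1 size factor per library; the submitters' processing notes name STAR, DESeq2 and GRCm39, and the counting tool and annotation are not given in the sources used here. All values (100%) came out as whole reads within 0.1 reads, giving between 15804709 and 26957612 reads per library. Rows averaging 10 or more normalized counts (13210 of 25067) were compared with limma-trend (limma 3.58.1, R 4.3.3) on log2(normalized count + 1), with Benjamini-Hochberg adjustment over all rows tested and a threshold of 0.05, so fold changes are on that scale. The whole reads were also tested with edgeR 4.0.16, which called 5780 rows, and DESeq2 1.42.0, which called 5213, against 5765 in limma. The edgeR, DESeq2 and limma steps were tested on simulated data. Ratios of 2 genes were compared by an exact two-sided permutation test. The genes and lists were chosen with earlier results of these data known. All 10 genes, the genes of the 7 related lists that passed with a log2 fold change of at least 0.5 in size, and the largest change of each list were to be named. *Degs1* stands on 2 rows, of which the higher was counted. The alternatives were other pseudocounts, filters, normalizations, tools, a replicate block, a regression on length and GC content (available for 97.7% of the rows tested) and leaving out each library; 4-OHT replicate 1 alone was added after the data were seen. Replicate libraries differed by more than counting noise (chi-square per degree of freedom 3.55 to 6.41). The summary of the list of colon epithelium markers is not reported here.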

Additional observations from a re-analysis of the deposited data

How the results depend on the processing

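Over 17 alternatives the number of the 10 genes called lower was 7 to 10 and the number called higher was 0. Of 170 values, 165 had the same direction and the same call as the main comparison. The median log2 fold change was -0.43 after quantile normalization, against -0.33, and between -0.35 and -0.27 otherwise, -0.35 to -0.28 with 1 library left out. *Acly* passed at -0.18 after quantile normalization and at -0.13 without 4-OHT replicate 1 (limma adjusted p = 0.0044 and 0.021), and it reversed to 0.0123 with 4-OHT replicate 1 as the only treated library (limma adjusted p = 0.90). In that comparison, chosen after seeing the data, *Srebf1* (-0.16, adjusted p = 0.056) and *Elovl6* (-0.08, adjusted p = 0.41) did not pass in limma. With the replicate block 9 of the 10 genes were lower and no call among them changed, but same-numbered libraries did not deviate together (correlations -0.01, 0.03 and -0.02), so the numbers were not read as a pairing. The other lists kept their counts of genes lower and higher within 1.5-fold except for malonyl-CoA control (0 to 2 lower), the elongation cycle (0 to 2 lower), transcriptional control (0 to 3 higher) and activation and glycerolipid synthesis (3 to 5 lower, 1 to 5 higher). The cause of these shifts was not tested. With 3 libraries a group, the ratios of 2 genes cannot give an exact p under 0.1, and the scarce *Hacd4* and *Nr1h3*, with at most 33.3 and 35.2 normalized counts, have wide standard errors (0.42 and 0.30).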
